A study of Mus musculus with 18 samples.

Results

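The genes described here encode the nuclear subunits of the mitochondrial respiratory chain and of ATP synthase. They were taken from the array's annotation by symbol: the Nduf families a, b, c, s and v (complex I), Sdha to Sdhd (complex II), the Uqcr genes (complex III), Cox4 to Cox8 (complex IV) and the Atp5 genes (complex V). This gave 81 of the 18193 genes tested, with 35 in complex I, 4 in complex II, 8 in complex III, 17 in complex IV and 17 in complex V. For every gene, the probe set annotated to it alone that varied most over the 18 arrays was used. A symbol is a family name and not a measured place in the chain: Ndufa4 is now regarded as a complex IV subunit, Cox7a2l is a supercomplex assembly factor, and Ndufa4l2 is a paralogue of Ndufa4. The 13 subunits encoded by mitochondrial DNA were not analysed here. Another 7 genes with matching symbols stood only on probe sets shared between genes and were left out, among them Ndufa11 and Ndufs6.

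The 18 arrays hold RNA of freshly isolated CD4+ T cells sorted from lymph nodes and spleen of B6;129 mice. Every mouse was heterozygous at the X-linked Foxp3 gene: one allele carried a GFP reporter and wild-type Foxp3, and the other a human CD2 (hCD2) reporter with wild-type or mutant Foxp3. The 7 groups were Tconv, conventional T cells that showed neither reporter (2 arrays), wild-type GFP+ regulatory T cells (WT GFP, 2 arrays) and wild-type hCD2+ regulatory T cells (WT hCD2, 2 arrays, numbered 3 and 4), all from mice whose hCD2 allele was wild type; GFP+ wild-type regulatory T cells from mice whose hCD2 allele carried A384T (WT GFP of A384T mice, 3 arrays); and hCD2+ regulatory T cells expressing Foxp3 with the substitution A384T, I363V or R397W (3 arrays each). Mutant cells thus developed beside wild-type regulatory T cells in the same animals, and a wild-type partner population was measured for A384T alone. The labels do not say whether each array is a separate animal or a pool, so each p-value measures the spread between these samples, which may be technical.

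The respiratory chain moves electrons from NADH (complex I) and succinate (complex II) through ubiquinone to complex III and through cytochrome c to complex IV, where oxygen is reduced. Complexes I, III and IV pump protons across the inner membrane, and complex V uses the gradient to make ATP. Regulatory T cells are known to rely on mitochondrial oxidation more than activated effector T cells do, and transcription of the nuclear subunits is known to be driven in part by NRF1, GABPA (NRF2), YY1 and ESRRA.

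Promoters are shown because the measured genes lie on many chromosomes and shared regulators are the best known link between them. RefSeq windows (GRCm38.p6, from 250 bases before to 50 after the annotated start) were found for 66 of the 81 genes, 71 windows in all. No window was found for Atp5a1, Atp5mpl, Cox4i1, Cox4i2, Cox6a2, Cox6c, Cox8c, Ndufa2, Ndufa4l2, Ndufb9, Ndufs1, Sdhc, Uqcrb, Uqcrc2 and Uqcrq. Core words of those 4 factors were searched on both strands: GCGCANGCG for NRF1, CCGGAAGT for GABPA, AAGATGGCG for YY1 and TCAAGGTCA for ESRRA. The NRF1 word stood in 26.8% of the respiratory chain windows against 6.25% of all 32851 windows, the YY1 word in 8.45% against 1.4%, the GABPA word in 7.04% against 3.89%, and the ESRRA word in 2.82% against 0.423%. At least 1 of the 4 words was present in 39.4% of the windows (28 of 71), and in 3630 of all 32851. A match describes letters only and is not evidence of binding in these cells. The windows printed are, for each complex, that of the gene with a match whose values followed those of the other genes on most arrays (described with the array values; the first by name where Ndufs3 and Ndufs5 tied with Ndufc1 and Atp5j2 with Atp5j), followed by Cox7c, the gene that passed the test in a comparison of mutant and wild-type cells. All 6 lie on the minus strand: Ndufc1 at chr3:51408906-51409205, Sdhd at chr9:50603800-50604099, Uqcr11 at chr10:80406772-80407071, Cox6a1 at chr5:115348909-115349208, Atp5j at chr16:84834927-84835226 and Cox7c at chr13:86046746-86047045. Capitals mark matches. They are the YY1 word in Ndufc1 and Atp5j, the NRF1 and ESRRA words in Sdhd, the GABPA and NRF1 words in Uqcr11, and 3 NRF1 matches in Cox6a1, of which a pair overlap on opposite strands. The Cox7c window holds none of the 4 words.
Ndufc1: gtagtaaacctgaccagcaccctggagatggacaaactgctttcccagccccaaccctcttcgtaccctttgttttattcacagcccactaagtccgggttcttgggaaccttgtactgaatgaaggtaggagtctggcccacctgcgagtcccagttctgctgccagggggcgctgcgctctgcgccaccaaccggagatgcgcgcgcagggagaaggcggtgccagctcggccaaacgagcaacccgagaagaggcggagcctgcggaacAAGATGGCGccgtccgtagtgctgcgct
Sdhd: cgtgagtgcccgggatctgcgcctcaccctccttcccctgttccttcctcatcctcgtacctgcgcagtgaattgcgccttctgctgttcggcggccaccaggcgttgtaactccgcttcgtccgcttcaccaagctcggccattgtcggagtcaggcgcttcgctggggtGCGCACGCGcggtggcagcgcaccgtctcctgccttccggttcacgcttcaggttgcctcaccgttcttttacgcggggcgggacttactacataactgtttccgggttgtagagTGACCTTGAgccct
Uqcr11: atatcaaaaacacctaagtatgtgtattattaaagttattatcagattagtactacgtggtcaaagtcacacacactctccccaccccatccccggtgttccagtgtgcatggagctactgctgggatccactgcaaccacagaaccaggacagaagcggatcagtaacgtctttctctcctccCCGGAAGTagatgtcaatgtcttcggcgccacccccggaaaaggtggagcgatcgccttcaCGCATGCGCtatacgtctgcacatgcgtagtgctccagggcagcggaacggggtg
Cox6a1: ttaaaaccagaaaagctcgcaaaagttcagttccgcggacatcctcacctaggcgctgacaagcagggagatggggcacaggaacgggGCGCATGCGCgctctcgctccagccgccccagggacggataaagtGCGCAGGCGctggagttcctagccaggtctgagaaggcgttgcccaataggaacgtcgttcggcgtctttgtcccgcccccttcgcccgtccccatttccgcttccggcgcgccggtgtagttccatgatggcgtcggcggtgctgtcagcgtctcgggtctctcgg
Atp5j: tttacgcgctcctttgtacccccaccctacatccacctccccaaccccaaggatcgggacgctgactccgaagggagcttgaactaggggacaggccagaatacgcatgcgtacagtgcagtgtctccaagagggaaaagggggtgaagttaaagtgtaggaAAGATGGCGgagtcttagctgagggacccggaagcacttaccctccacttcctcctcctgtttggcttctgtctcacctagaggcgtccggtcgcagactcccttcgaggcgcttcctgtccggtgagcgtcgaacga
Cox7c: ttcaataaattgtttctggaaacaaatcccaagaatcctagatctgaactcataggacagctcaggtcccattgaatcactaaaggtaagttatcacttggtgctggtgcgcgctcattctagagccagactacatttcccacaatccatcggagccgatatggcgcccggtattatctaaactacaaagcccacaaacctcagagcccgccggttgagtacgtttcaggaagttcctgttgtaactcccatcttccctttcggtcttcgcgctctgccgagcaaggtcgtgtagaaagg

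All values are log2 values against the Tconv mean, because the deposited table sets the average of the Tconv arrays to 0 for each probe set. This keeps group differences but removes the level of a gene, so genes cannot be ranked by abundance and no gene can be called absent. Foxp3 read -0.07 and 0.07 on the Tconv arrays and 6.38 to 7.59 on the regulatory T cell arrays, and Il2ra 4.30 to 6.30 on the latter. In bulk RNA, fewer cells of a type and less RNA per cell cannot be told apart. A gene was called changed at an adjusted p under 0.05 in limma, with Benjamini-Hochberg adjustment over all 18193 genes.

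The clearest feature of the respiratory chain genes was that they rose and fell together between replicate arrays of the same group. The median over the 81 genes was 0.15 and -0.15 in Tconv, 0.38 and 0.21 in WT GFP, and 0.40 and 0.08 in WT hCD2. It was 0.14, 0.39 and 0.26 on the arrays of WT GFP cells of A384T mice and 0.14, 0.39 and 0.17 on the A384T arrays. I363V arrays read 0.10, -0.02 and 0.30, and R397W arrays 0.29, -0.05 and 0.24. The lowest array of the I363V and of the R397W group therefore lay below WT hCD2 array 4, while the other arrays of both mutants overlapped the wild-type range. The median of all genes stayed within 0.05 of 0 on every array.

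**Figure D1:**
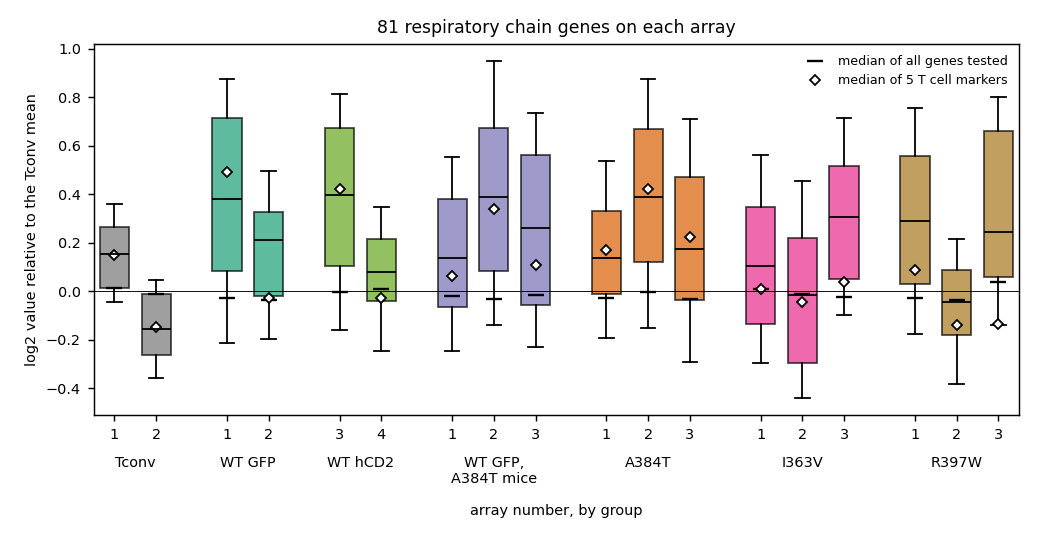
Each box shows the 81 respiratory chain genes on 1 array (median, quartiles and 10th to 90th percentile; log2 value relative to the Tconv mean), coloured by group, with the median of all genes tested as a dash and the median of 5 T cell markers as a diamond. Box medians differ within groups, from -0.05 to 0.29 among the R397W arrays, about as much as between groups.

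These array shifts were shared by most of the genes. On A384T array 2, 68 of 81 genes lay above their own group mean, and on array 2 of WT GFP cells of A384T mice 70 of 81 did. On R397W array 2, 65 of 81 lay below it, and on I363V array 2, 62 of 81. For all genes tested, between 43.9% and 59.2% lay above the group mean on any array. The sign of a gene's deviation matched that of the median of the other 80 on at least 15 of 18 arrays for 38 genes and on at least 12 for 61. This count was not made over all genes tested, so how many other genes match as often cannot be told. Groups of 2 arrays mirror each other by construction, so their 6 arrays give 3 independent signs. Ndufa4 matched on 18 of 18 arrays, and 11 genes matched on 17: Ndufa3, Ndufa7, Ndufb7, Ndufb9, Ndufb11 and Ndufc2 of complex I, Uqcr11 of complex III, Cox6a1 of complex IV, and Atp5g1, Atp5j and Atp5j2 of complex V. None of the reference subunits described further on is among them. The genes that went with the others on 8 arrays or fewer numbered 10. They were Ndufb2 and Atp5c1 (3 arrays), Cox4i2 (4), Cox5b (5), Ndufa12 (6), Cox6a2 and Uqcrc2 (7), and Cox7c, Cox8c and Ndufs1 (8). These counts used the chosen probe set of each gene alone and were not made for the others. Another Cox5b probe set read -0.03, 0.44 and 0.39 in A384T and 0.75, 0.08 and 0.36 in R397W. The chosen one read -0.15, -0.43 and -0.48 and then -0.18, 0.22 and -0.49.

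Cox4i2, Cox6a2 and Cox8c in that list are isoforms best known from lung, heart and skeletal muscle, and testis. The mitochondrial ribosome moved with the respiratory chain genes on most of the arrays given here, and the T cell markers did so in part. T cell markers (5 of 6 measured) had medians of 0.49 and -0.03 in WT GFP, 0.42 and -0.03 in WT hCD2, and 0.17, 0.42 and 0.22 in A384T. The mitochondrial ribosome list (76 genes) read 0.35, -0.12 and 0.30 on the R397W arrays and 0.08, -0.04 and 0.19 on the I363V arrays. The T cell markers read 0.09, -0.14 and -0.14 on the R397W arrays and 0.01, -0.05 and 0.04 on the I363V arrays, so on R397W array 3 they were low where the respiratory chain genes were high. Whether RNA quality or the makeup of the sorted cells had a part in the array shifts was not tested.

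**Figure D2:**
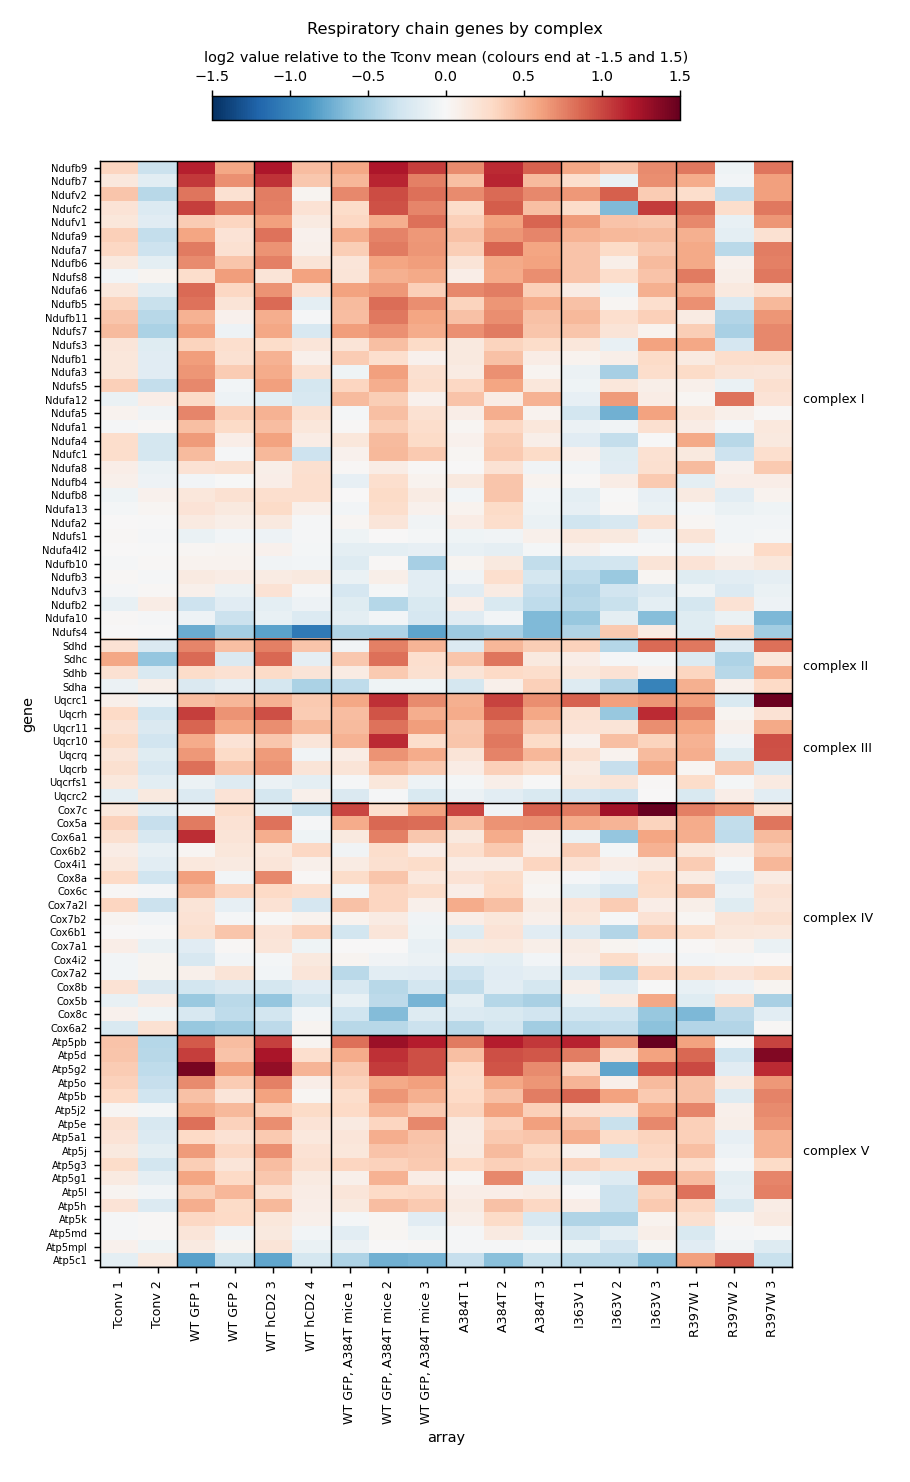
Rows are the 81 genes by complex, ordered within a complex by their mean over the 16 regulatory T cell arrays, and columns are the 18 arrays by group; colour is the log2 value relative to the Tconv mean. Whole columns darken or pale together, as on R397W array 2, while Cox7c, Atp5c1, Cox5b and Ndufs4 form rows of their own.

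The spread between replicate arrays was large for these genes. The median within-group SD was 0.266 over the 81 genes, against 0.18 over all genes tested, and it ran from 0.0851 for Cox4i2, the lung isoform of a complex IV subunit, to 0.599 for Atp5g2, which encodes subunit c of the ATP synthase ring. Differences between the 7 groups made up a median of 37.5% of a gene's variance over the arrays, against 40.8% for all genes. With 7 groups of so few arrays, noise alone also sets group means apart and gives a large share. That part was not subtracted, so these medians do not measure an effect of cell group. The largest shares were 68.9% for Cox7c, 68.6% for Ndufs4, 65.1% for Atp5c1, 64.9% for Cox4i2 and 64% for Sdha. In a test of any difference among the 7 groups, 0 of 81 genes passed (limma, smallest adjusted p = 0.0769 for Cox7c), against 6.56% of all genes. At an unadjusted p under 0.05 there were 4 (Cox7c, Ndufs4, Atp5c1 and Sdha), or 4.94%, against 16.7% of all genes.

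Wild-type regulatory T cells were compared with Tconv cells to ask which respiratory chain genes set the lineage apart. Most genes read higher in the regulatory T cells, but no single gene passed the test. The difference (mean of WT GFP and WT hCD2 minus Tconv) was above 0 for 65 of 81 genes, with a median of 0.30, whereas 47% of all genes were above 0, with a median of -0.01. The respiratory chain genes moved together between arrays, so their count is not one of independent observations. The groups overlapped by array: the median of these genes was 0.155 on Tconv array 1 and 0.077 on WT hCD2 array 4. By complex, the median difference was 0.26 for complex I, 0.29 for complex II, 0.43 for complex III, 0.06 for complex IV and 0.35 for complex V. Complex IV stood lowest, with 58.8% of its genes above 0, against 85.7% in complex I and 94.1% in complex V. Its figures include the tissue or testis isoforms Cox4i2 (-0.04), Cox6a2 (-0.36), Cox6b2 (0.16), Cox7a1 (-0.01), Cox8b (-0.23) and Cox8c (-0.23). Whether those probe sets read above background cannot be told. The other complex IV genes ran from -0.45 (Cox5b) to 0.45 (Cox5a), with Cox4i1 at 0.14. How far the low place of complex IV rests on the isoforms was not tested. The number called was 0 of 81 (limma, smallest adjusted p = 0.0611), where 5.84% of all genes were called. That fit took no arrays as paired, and a fit of WT GFP and Tconv with the array number as a block is given further on. At an unadjusted p under 0.05, 12 genes were higher and 2 lower, or 17.3% of the 81, close to the 15.4% of all genes.

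The 12 higher genes encode subunits of complexes I, III and V: Ndufa1, Ndufa6, Ndufb1, Ndufb6, Ndufb7 and Ndufb9, Uqcr11 and Uqcrb, and Atp5g3, Atp5j, Atp5j2 and Atp5o. Uqcr11, the smallest complex III subunit, read 0.87 and 0.58 in WT GFP, 0.69 and 0.49 in WT hCD2, and 0.22 and -0.22 in Tconv. The wild-type arrays lay above both Tconv arrays, and the difference was 0.66 ± 0.20 (SE; adjusted p = 0.0698). Ndufb9, an accessory subunit of the complex I membrane arm, read 1.17 and 0.58 in WT GFP, 1.22 and 0.46 in WT hCD2 and 0.32 and -0.32 in Tconv, again without overlap. Its difference was 0.86 ± 0.29 (adjusted p = 0.122), but 0.53 without Tconv array 2 and 0.32 as the mean of its probe sets, of which the others gave 0.22 and -0.11. Ndufb7, which sits on the outer face of the same arm, differed by 0.81 ± 0.29 (adjusted p = 0.143). Of the 81 genes, 23 had all 4 wild-type arrays above both Tconv arrays, where 13.3% of all genes did, and 5 had all 4 below both (Atp5c1, Cox5b, Ndufa10, Ndufs4 and Sdha), where 13.1% of all genes did.

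The largest differences in the other complexes had wide errors. They were 0.97 ± 0.46 for Atp5g2 and 0.74 ± 0.40 for Atp5d, the delta subunit of the ATP synthase stalk, in complex V. The Atp5g2 value rests on 1 of 3 probe sets: the others gave -0.23 and 0.02, and the mean of all was 0.25. Uqcrh, the hinge protein of complex III, gave 0.76 ± 0.36, and the membrane anchors of succinate dehydrogenase gave 0.59 ± 0.36 (Sdhd) and 0.34 ± 0.36 (Sdhc). Without Tconv array 2 the values were 0.59 for Atp5g2, 0.32 for Atp5d, 0.46 for Uqcrh, 0.37 for Sdhd and -0.24 for Sdhc. None passed the test, with adjusted p from 0.326 to 0.749. Sdhc, with values of 0.85 and -0.22 in WT GFP and 0.58 and -0.58 in Tconv, overlapped between the groups.

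The 2 genes lower at an unadjusted p under 0.05 were Ndufs4 and Cox6a2. Cox6a2, the muscle isoform of a complex IV subunit, read -0.57 and -0.52 in WT GFP, -0.39 and 0.04 in WT hCD2 and -0.22 and 0.22 in Tconv. WT hCD2 array 4 lay inside the Tconv range and the other wild-type arrays below it, and the difference was -0.36 ± 0.16 (adjusted p = 0.303). Its other probe set differed by -0.40 ± 0.11, and the mean of both was called (limma), while Ndufs4 and Cox5b, the complex IV gene with the largest difference, depended on the probe set. Ndufs4, an assembly-critical accessory subunit of complex I, read -0.74 and -0.51 in WT GFP, -0.80 and -1.06 in WT hCD2 and 0.01 and -0.01 in Tconv. The groups were far apart, and the difference was -0.78 ± 0.23 (adjusted p = 0.0611). Its other 3 probe sets gave differences of 0.14, 0.40 and -0.06, so the direction held in only 1 of them. The chosen Cox5b probe set (a nuclear subunit of the complex IV core module) differed by -0.45 ± 0.22 (adjusted p = 0.35), while 4 of its 5 others were between 0.29 and 0.48 and the fifth was -0.18. Over the 48 genes with several probe sets, all probe sets of the gene had the same sign in this comparison for 29.

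**Figure D3:**
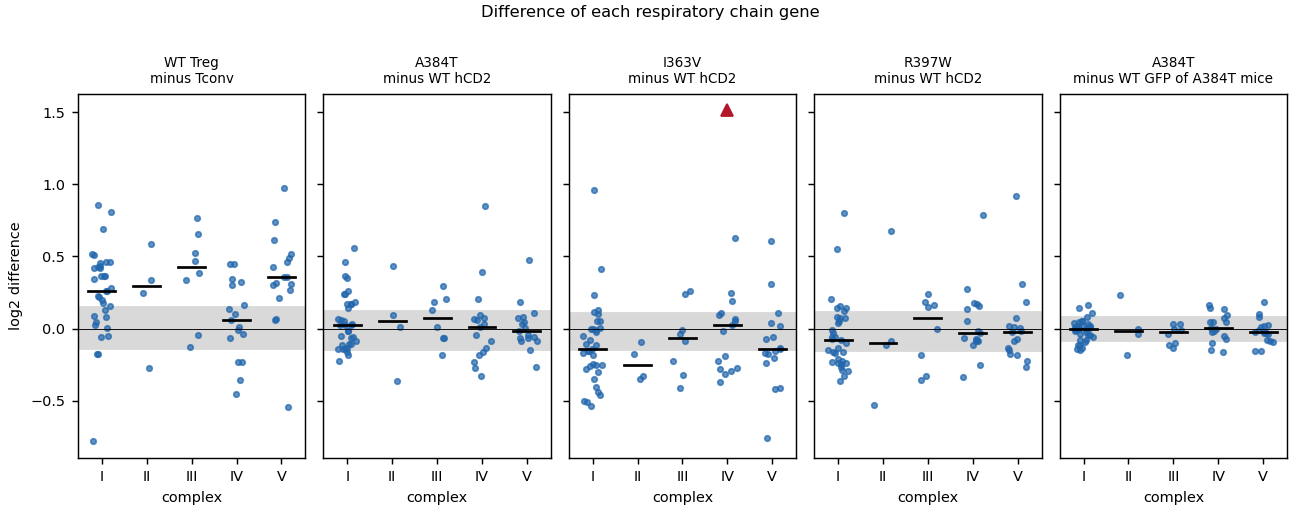
Points are the log2 differences of the 81 genes by complex in 5 comparisons, bars are the medians of each complex, grey bands are the quartiles over all genes tested, and the triangle is the gene called at an adjusted p under 0.05 (Cox7c in I363V, 1.51). The points of A384T against WT GFP of the same mice lie between -0.19 and 0.23.

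Each Foxp3 substitution was then compared with WT hCD2 cells, which carry the same reporter. The comparisons share the 2 WT hCD2 arrays, so their differences are not independent of each other. The number of respiratory chain genes called was 0 of 81 for A384T (0.28% of all genes), 1 of 81 for I363V (0.912% of all genes) and 0 of 81 for R397W (2.26% of all genes). At an unadjusted p under 0.05, 2 genes were higher and 0 lower in A384T (8.07% of all genes passed), 3 higher and 4 lower in I363V (8.94%), and 5 higher and 0 lower in R397W (11.7%). Shares of the 81 genes were 2.47%, 8.64% and 6.17% in that order, none above the share of all genes. Median differences were 0.01, -0.13 and -0.07. In I363V, 25 of 81 genes were above 0, with medians of -0.14, -0.25, -0.06, 0.03 and -0.14 in complexes I to V. Because these genes moved together between arrays, that count is not one of independent observations.

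Cox7c was the gene called in I363V cells. It encodes a small nuclear subunit of complex IV. It read 0.78, 1.26 and 1.78 in I363V, -0.14 and -0.33 in WT hCD2, 0.16 and -0.16 in Tconv, and -0.06 and 0.26 in WT GFP. All I363V arrays lay above every array of those 3 groups. Group means were 1.28 ± 0.50 (SD, n = 3) in I363V and -0.24 ± 0.13 (SD, n = 2) in WT hCD2, a difference of 1.51 ± 0.33 (SE; limma adjusted p = 0.0421), or 2.86-fold. Cox7c read 0.75, 0.66 and 0.24 in R397W, 0.997, -0.05 and 0.89 in A384T, and 0.997, 0.25 and 0.61 in the wild-type cells of A384T mice. Each of these groups averaged above WT hCD2, also the wild-type one, and each overlapped at least 1 other group. Its differences from WT hCD2 were 0.85 ± 0.33 in A384T (adjusted p = 0.506) and 0.79 ± 0.33 in R397W (adjusted p = 0.328). I363V differed from Tconv by 1.28 ± 0.33 (adjusted p = 0.056).

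The second Cox7c probe set had the same order of I363V arrays, at 0.32, 0.77 and 1.198, and WT hCD2 arrays at -0.59 and -0.37. In a fit of every probe set its difference was 1.24 ± 0.33 (adjusted p = 0.139), against an adjusted p of 0.045 for the chosen one. Cox7c no longer passed when WT hCD2 array 3 (adjusted p = 0.15) or 4 (0.371) was left out, when I363V array 2 (0.102) or 3 (0.131) was left out, after quantile normalization (0.0847) and in a fit of these 2 groups alone (0.214).

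**Figure D4:**
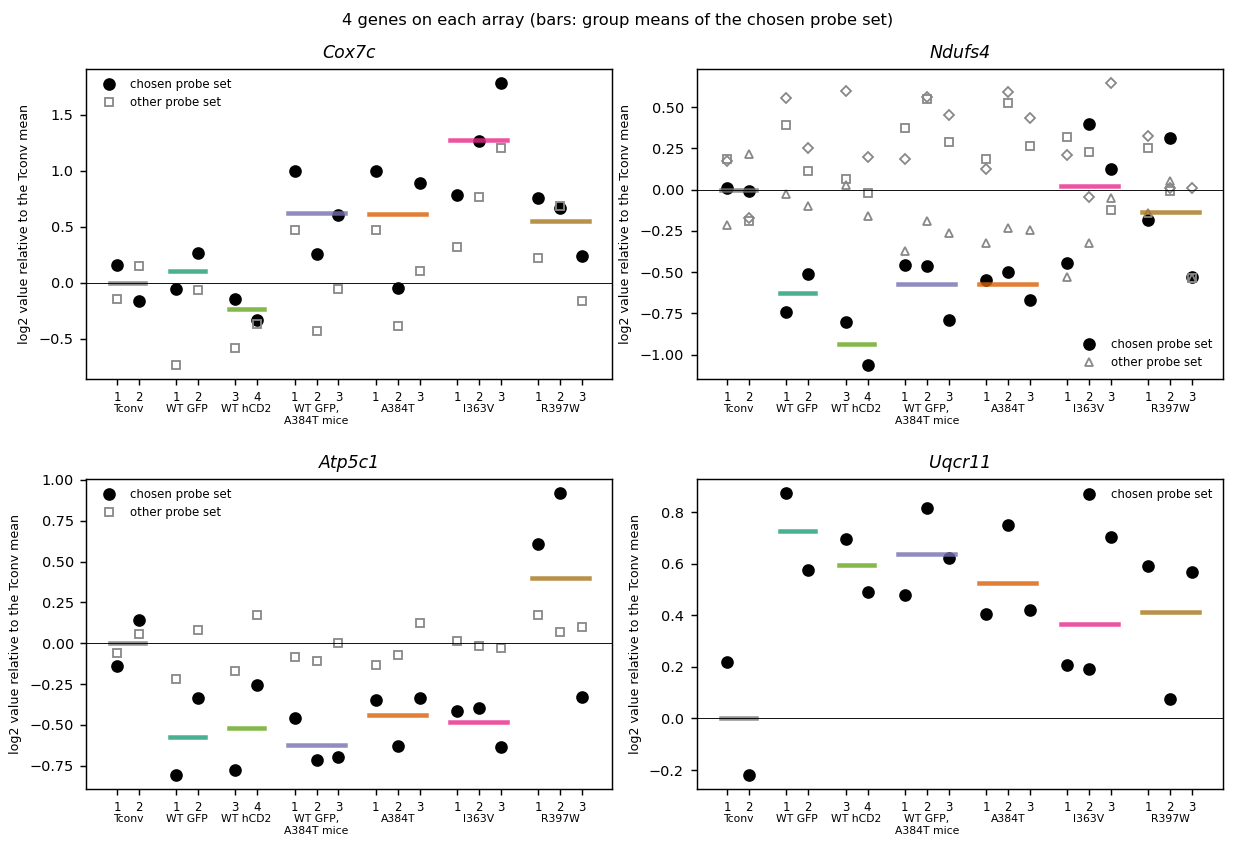
Log2 values relative to the Tconv mean on each array for Cox7c, Ndufs4, Atp5c1 and Uqcr11: filled points are the chosen probe set, open points the gene's other probe sets, and bars the group means of the chosen one. The Cox7c probe sets keep the I363V arrays in the same order, while the chosen probe sets of Ndufs4 and Atp5c1 part from the others.

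Ndufs4 on its chosen probe set read -0.45, 0.40 and 0.12 in I363V and -0.19, 0.31 and -0.53 in R397W, all above the WT hCD2 arrays. The differences were 0.96 ± 0.24 (adjusted p = 0.0903) and 0.80 ± 0.24 (adjusted p = 0.121). Its other 3 probe sets differed by -0.24 to 0.12 in I363V and by -0.28 to -0.12 in R397W. In A384T the chosen one read -0.55, -0.50 and -0.67, close to the -0.45, -0.46 and -0.79 of the wild-type cells in the same mice.

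Atp5c1, the gamma subunit that turns in the ATP synthase, read 0.61, 0.92 and -0.33 in R397W and -0.78 and -0.26 in WT hCD2. R397W array 3 lay inside the wild-type range and the others far above it, and the difference was 0.92 ± 0.28 (adjusted p = 0.136). Without that array Atp5c1 and Ndufs4 were called in R397W against WT hCD2, with differences of 1.28 and 0.996. The other Atp5c1 probe set differed by 0.11 ± 0.12. Sdha, the flavoprotein that oxidises succinate, read 0.54, 0.08 and 0.29 in R397W and -0.27 and -0.48 in WT hCD2, a difference of 0.68 ± 0.22 (adjusted p = 0.176), and its other 3 probe sets differed by -0.03 to 0.07.

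Further differences named by size had wider errors. In A384T, Ndufa12, an accessory subunit near the NADH-oxidising arm, differed from WT hCD2 by 0.56 ± 0.24, but by -0.11 as the mean of its probe sets. The same gene gave 0.55 ± 0.24 in R397W and -0.05 as that mean. Others in A384T were 0.46 ± 0.35 for Ndufs7 and 0.48 ± 0.36 for Atp5pb, the b subunit of the peripheral stalk. In I363V, the most negative difference was -0.76 ± 0.49 for Atp5g2 in complex V (-0.23 as the mean of its probe sets), -0.54 ± 0.26 for Ndufa4 among the complex I symbols, -0.42 ± 0.38 for Uqcrh in complex III and -0.35 ± 0.38 for Sdhc in complex II. In R397W it was -0.53 ± 0.38 for Sdhc in complex II, -0.35 ± 0.26 for Uqcrb in complex III and -0.34 ± 0.23 for Cox8a in complex IV. None of these was called.

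The closest partners of the A384T cells were the GFP+ wild-type cells that developed beside them. Differences of the respiratory chain genes were small. The median difference was -0.01, all 81 differences lay between -0.19 and 0.23, and the median size of a difference was 0.05, against 0.09 for all genes. Medians by complex ran from -0.03 to 0.00. The number called was 0 of 81 (0.522% of all genes), and 0 of 81 had an unadjusted p under 0.05 (limma; 5.03% of all genes). The largest differences were 0.23 ± 0.20 for Sdha, -0.19 ± 0.34 for Sdhd, 0.18 ± 0.25 for Atp5c1, 0.16 ± 0.16 for Ndufb10 and -0.16 ± 0.33 for Cox6a1. Cox7c gave -0.01 ± 0.29. These errors come from the fit without the pairing described next, and most are larger than the difference itself.

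Arrays of equal number in those groups shared their deviations. For number 1, 72 of 81 genes deviated from their group mean to the same side in A384T and in the partner cells, for number 2, 71 of 81, and for number 3, 66 of 81. These are 88.9%, 87.7% and 81.5%, against 68.7%, 67.3% and 65.7% of all genes. Across the 81 genes, which share the same arrays and are not independent, the deviations had correlations of 0.88, 0.78 and 0.61. Unequal numbers of these groups gave -0.59 to -0.10. A384T array 1 and R397W array 2, which were not taken as paired, reached 0.64, with 0.15 over all genes. A high value across these 81 genes is therefore not particular to equal numbers. Within a number the median difference of A384T minus partner was 0.00, -0.01 and -0.07. With the number as a block in a fit of these 2 groups, the median SE of the 81 differences fell from 0.202 to 0.079. Again 0 of 81 genes were called, while the count over all genes rose from 95 to 952. At an unadjusted p under 0.05 there were 2 of 81, against 16.9% of all genes: Sdha, at 0.12, 0.15 and 0.42 within the pairs, and Sdhd, at -0.16, -0.26 and -0.14. Their differences with the block were 0.23 ± 0.09 (limma adjusted p = 0.227) and -0.19 ± 0.08 (0.268). The difference had one sign in all 3 pairs for 29 of 81 genes and for 37.9% of all genes.

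**Figure D5:**
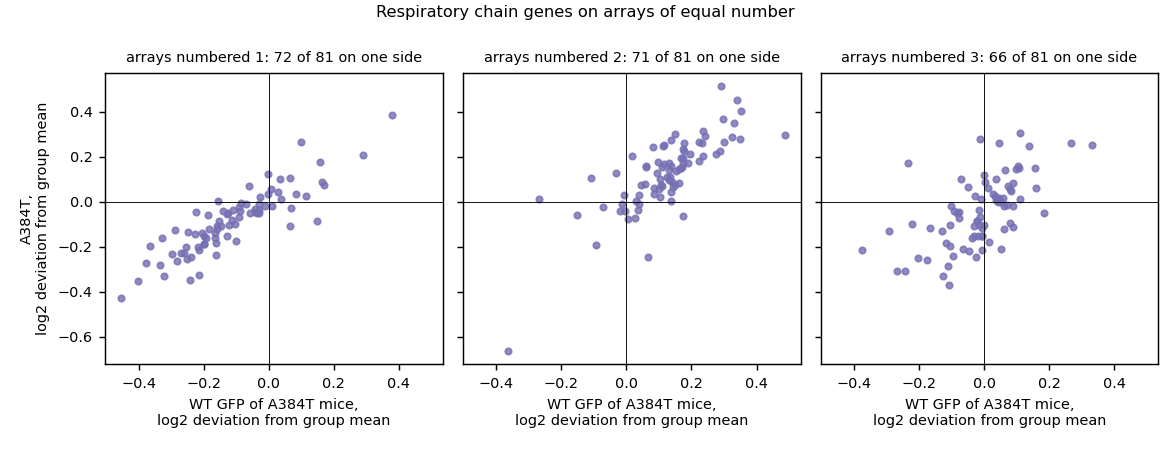
Each panel plots, for arrays of equal number, the log2 deviation of the 81 genes from their group mean in WT GFP cells of A384T mice (x) against that in A384T cells (y). Most points lie in the lower left for number 1 and the upper right for number 2, with 72, 71 and 66 genes on one side in both.

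Arrays of the wild-type groups that bear different numbers also deviated alike, but groups of 2 arrays mirror each other and give 1 value. WT GFP array 1 and WT hCD2 array 3 deviated to the same side of their group means at 70 of 81 genes, or 86.4%. The share was 69.7% of all genes, and the correlation across the respiratory chain genes was 0.85. By construction, WT GFP array 1 and WT hCD2 array 4 have the same correlation with the opposite sign. Genes that shift together between arrays must therefore match in one of these ways. The labels do not say what these arrays share, and it was not tested.

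Comparisons among the mutants set apart no respiratory chain gene. A384T minus I363V gave 0 of 81 called (1.14% of all genes), A384T minus R397W 0 of 81 (3.13%) and I363V minus R397W 0 of 81 (0.0824%). At an unadjusted p under 0.05 the counts were 7, 3 and 7 (8.65%, 16% and 8.52% of all genes). Differences of A384T minus I363V were mostly above 0, in 66 of 81 genes with a median of 0.13. Of all genes, 49.2% were above 0, and of complex I genes 91.4%. The respiratory chain genes moved together between arrays, so these counts are not independent observations. Their array medians overlapped, at 0.14, 0.39 and 0.17 in A384T and 0.10, -0.02 and 0.30 in I363V. Among the differences above 0 were Ndufa6 at 0.42 ± 0.19, Sdha at 0.60 ± 0.20 and Atp5k at 0.33 ± 0.15 (limma adjusted p from 0.272 to 0.567). Atp5k is a small subunit of the ATP synthase membrane part. In the other direction stood Cox7c at -0.66 ± 0.29, Ndufs4 at -0.59 ± 0.21 and Cox5b at -0.55 ± 0.21. The other Ndufs4 probe sets and some of the other Cox5b ones had the opposite sign here. All other probe sets of Sdha and Cox5b gave differences smaller in size. Atp5c1 had the most negative difference against R397W, at -0.84 ± 0.25 for A384T (adjusted p = 0.097) and -0.88 ± 0.25 for I363V (adjusted p = 0.26), and Sdha differed between I363V and R397W by -0.85 ± 0.20 (adjusted p = 0.152). Cox7a2, a small complex IV subunit, differed by -0.46 ± 0.15 between A384T and R397W (adjusted p = 0.139). Without R397W array 3 Atp5c1 was called against both other mutants, and without R397W array 2 Atp5l was. The other Atp5c1 probe set read 0.18, 0.07 and 0.10 in R397W, -0.13, -0.08 and 0.12 in A384T, and 0.01, -0.02 and -0.03 in I363V.

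Against Tconv cells, each mutant group read higher at most respiratory chain genes. Differences above 0 numbered 63 of 81 in A384T (median 0.25), 57 in I363V (median 0.14) and 64 in R397W (median 0.20). These comparisons share the Tconv arrays with the wild-type one, so the likeness of their directions is no separate evidence. Nor are the genes independent of each other, since they moved together between arrays. Complex III had the highest median in each, at 0.49, 0.26 and 0.38. Among its genes Uqcrc1, a core protein, differed by 0.75 ± 0.33, 0.72 ± 0.33 and 0.62 ± 0.33. Atp5pb gave 1.01 ± 0.36 in A384T and 1.14 ± 0.36 in I363V. Its other probe set read 0.04, 0.03 and 0.33 in A384T and 0.33, 0.30 and 0.37 in I363V. No gene was called in A384T (6.52% of all genes), I363V (2.51%) or R397W (2.02%), and 13, 10 and 4 had an unadjusted p under 0.05 (18.5%, 12% and 10.8% of all genes; limma). In R397W, leaving out array 2 raised the called count from 0 to 4 (Atp5j2, Atp5l, Ndufs8 and Uqcrc1, all higher).

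The wild-type groups were set against each other as controls. WT hCD2 minus WT GFP called 0 of 81 genes, with 0% of all genes called, and 0 of 81 had an unadjusted p under 0.05 (2.54% of all genes). WT GFP of A384T mice minus WT GFP called 0 of 81, again with 0% of all genes, and 2 genes, Atp5k and Cox7a2, were lower at an unadjusted p under 0.05 (2.6% of all genes). Cox7c differed by 0.52 ± 0.33 there. Whether the A384T difference from WT hCD2 departs from the difference of the partner cells from WT GFP was tested as an interaction. In limma, 0 of 81 genes were called (0.0495% of all genes), and 0 of 81 had an unadjusted p under 0.05 (3.75% of all genes). This fit did not use the pairing of A384T and partner arrays, so its errors are those of unpaired arrays.

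None of the 10 reference subunits, followed in every comparison, was called in any of them, but their ranges differed. Over the 13 pairwise comparisons and the interaction the differences of Ndufs1 lay between -0.10 and 0.13, those of Cox4i1 between -0.13 and 0.28, those of Sdhb, the iron-sulphur protein of complex II, between -0.09 and 0.25, and those of Uqcrfs1, the Rieske protein, between -0.13 and 0.24. Atp5a1 and Atp5b, the alpha and beta subunits of the catalytic head, reached 0.38 and 0.62, both in I363V against Tconv. Ndufv1, which binds NADH, and Cox5a reached 0.61 and 0.60, both in A384T against Tconv. The other Cox5a probe sets lay on the other side in A384T, at -0.30, -0.23 and -0.06 and at -0.31, -0.25 and -0.11. Uqcrc1 reached 0.75 in A384T against Tconv, and Sdha had the widest span, from -0.85 (I363V minus R397W) to 0.68 (R397W minus WT hCD2). The smallest adjusted p among the 10 was 0.152, for Sdha in the former comparison. Its other 3 probe sets differed there by -0.03 to 0.02. Tissue isoforms gave differences within -0.45 and 0.37: Cox6a2, the muscle form, had the widest range, and Cox7a1 lay between -0.08 and 0.16. With the level lost, whether these probe sets read above background cannot be told.

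Related mitochondrial genes were read from lists of assembly factors (46 measured), regulators of mitochondrial biogenesis (16), other carriers and subunits (12), the citric acid cycle (15), fatty acid oxidation (14), inner membrane carriers (8) and the mitochondrial ribosome (76). In wild-type regulatory T cells against Tconv, 4 of these 187 genes were called, all higher, or 2.14% against the 5.84% of all genes. Sdhaf1, which helps insert iron-sulphur clusters into Sdhb, rose by 0.82 ± 0.20 (adjusted p = 0.0211). Etfb, which passes electrons from fatty acid oxidation towards ubiquinone, rose by 0.88 ± 0.22 (adjusted p = 0.0263), and the ribosomal proteins Mrps6 and Mrpl52 rose by 0.83 ± 0.17 and 0.67 ± 0.16. Median differences were 0.18 for the mitochondrial ribosome and for fatty acid oxidation, -0.01 for assembly factors and -0.15 for biogenesis regulators, beside 0.30 for the respiratory chain. Against WT hCD2, none of these lists held a called gene in any of the 3 mutants, with 5, 11 and 11 genes at an unadjusted p under 0.05. These are 2.67%, 5.88% and 5.88% of the 187, against 8.07%, 8.94% and 11.7% of all genes. A384T minus R397W called Acad9, a complex I assembly factor, higher by 0.68 ± 0.16 (adjusted p = 0.0365). A384T against Tconv called Acad9 (0.94 ± 0.18), Sdhaf1 (1.34 ± 0.21), Etfb (0.85 ± 0.23), Mrps6 (0.67 ± 0.17) and Pdha1 of pyruvate dehydrogenase (0.52 ± 0.14) higher, and Pprc1, a coactivator of the PGC-1 family, and Mrpl57 lower (-0.49 ± 0.12 and -0.93 ± 0.17).

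Markers of other cells moved in some of the same comparisons. The B cell gene Cd79b was higher by 2.21 ± 0.26 in wild-type regulatory T cells than in Tconv, with the other 4 B cell markers not called. Lyz2, a myeloid gene, differed by -2.66 ± 0.35 between R397W and WT hCD2, and was the one called of 6 myeloid markers. All 6 were lower there, with a median of -0.79, and 4 had an unadjusted p under 0.05. Cd22 differed by -1.03 ± 0.23 between I363V and WT hCD2, the one called of 5 B cell markers, which had a median of -0.49 and 2 at an unadjusted p under 0.05. In A384T, the 6 myeloid markers had a median of -0.50, with 2 lower at an unadjusted p under 0.05 and none called. Of 5 CD8 and NK markers, Nkg7 alone was called. It was higher in A384T than in I363V (2.01 ± 0.36) and R397W (2.02 ± 0.36), where the list medians were -0.16 and -0.12. Ms4a1, a B cell gene, differed by -1.59 ± 0.27 between A384T and R397W. Tyrobp, a myeloid gene, differed by -2.07 ± 0.47 between R397W and Tconv. Against WT hCD2, R397W had 1 B cell marker higher and 2 lower at an unadjusted p under 0.05, with none called. The cell cycle list (22 genes) had a median difference of 0.59 in wild-type regulatory T cells against Tconv, with Tk1 and Mcm6 called, and -0.49, -0.25 and -0.25 in A384T, I363V and R397W against WT hCD2 with none called. The part of these markers in the respiratory chain values was not tested.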

How the data were processed

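RNA was measured on 18 Affymetrix mouse arrays of 45101 probe sets, after Isogen and RNeasy extraction and two-cycle labelling. Values in the authors' table are on a log2 scale (the log base follows RMA's convention); RMA is named in the submitters' processing notes, and its version is not given in the sources used here. The deposited values sum to at most 1.0e-06 over the Tconv arrays at every probe set. They were used without further normalization, and scanner files were not used here, so scan batches and signal over background were not analysed. The number of arrays limits the precision.

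The chip annotation names 1 gene for 34945 probe sets and several for 932, which were left out, as were 13 control probe sets. Of the 81 genes, 48 had several probe sets (164 in all), and 23 were represented by one whose name is tagged s, x or a. Group means of all arrays were fitted with limma 3.58.1 in R 4.3.3 (11 residual and 3.3 prior degrees of freedom, eBayes, two-sided, Benjamini-Hochberg over 18193 genes), and the procedure was tested on simulated data. Errors after ± are SE of a difference or, where marked, SD. A filter on dim probe sets could not be applied to centred values, so a filter on variance served as that alternative. The named genes were, in each comparison, those called and, in complexes with fewer than 4 calls, the 2 largest differences. The reference subunits and tissue isoforms were added to these, and some others were chosen after their values were seen. The genes and lists were chosen with earlier results of these data known. Arrays of equal number of A384T and of WT GFP cells of A384T mice were taken as paired, since their deviations correlated over all genes at 0.69, 0.65 and 0.58. Other equal numbers were not taken as paired, although those of WT GFP and Tconv, in groups of 2 arrays, reached 0.71. Python 3.11.15, pandas 2.3.3 and matplotlib 3.10.9 were used for tables, promoter words and figures.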

Additional observations from a re-analysis of the deposited data

How the results depend on the processing

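Each comparison was repeated with the mean of a gene's probe sets, untagged probe sets, array medians subtracted, quantile normalization, a variance filter (genes below the median left out), robust eBayes, only the groups compared, each array left out and, as an alternative chosen after seeing the data, every probe set as a feature. The counts of 0 respiratory chain genes held in all of these for A384T against WT hCD2, WT GFP of its mice and I363V, for both wild-type controls and for the interaction. WT Treg minus Tconv gave 1 called gene with mean probe sets (Cox6a2, lower), 1 with the variance filter and 1 with only those groups (Ndufs4, lower, in both), and 0 to 1 with arrays left out. I363V minus WT hCD2 gave 0 after quantile normalization, 0 with only those groups and 0 to 2 with arrays left out. A384T minus Tconv gave 1 with mean probe sets and 1 with every probe set (Cox6a2, lower), 1 with only those groups (Ndufs4, lower), and 0 to 1 with arrays left out. I363V minus Tconv gave 1 (Cox7c) with the variance filter and 0 to 1 with arrays left out. The test over the 7 groups gave 1 (Cox7c) with that filter and 0 to 2 with arrays left out. Arrays left out gave 0 to 2 in R397W minus WT hCD2, 0 to 4 in R397W minus Tconv, and 0 to 1 in A384T minus R397W and in I363V minus R397W. Where no cause is given, it was not tested.

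A replicate block on the shared numbers of WT GFP and Tconv alone gave 35 called genes (31 higher, 4 lower). It called 18.4% of all genes, on 1 residual degree of freedom. The first arrays of those groups deviated to the same side at 62 of 81 genes, with a correlation of 0.71 over all genes. That is as high as for the paired A384T arrays, but groups of 2 arrays mirror each other and give 1 value. Tconv array 1 and WT hCD2 array 3, of unequal number, reached 0.72. Whether the WT GFP and Tconv arrays are paired cannot be told from the labels. A replicate block called 0 of 81 in A384T against I363V, A384T against R397W and I363V against R397W as well as in the paired A384T comparison.

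Of 1819 values of the 140 named differences under alternatives, 1756 kept direction and side of the threshold, 6 lost the call, all of Cox7c in I363V minus WT hCD2, 18 gained one and 39 changed sign, none of a called gene. With mean probe sets the sign changed for Cox5b in WT Treg minus Tconv (0.14) and in I363V minus WT hCD2 (-0.081), Ndufa12 in A384T (-0.11) and R397W (-0.053) minus WT hCD2 and in the interaction (-0.031), Ndufs4 in A384T minus R397W (0.049) and Uqcrq in the interaction (-0.0022). With untagged probe sets it changed for Uqcrq in A384T minus I363V (-0.056) and in the interaction (-0.053) and for Cox8c in R397W minus Tconv (0.021), and after quantile normalization for Sdhc in WT Treg minus Tconv (-0.016).
With arrays left out, ranges that crossed 0 were as follows. In WT Treg minus Tconv, Sdhc ran from -0.24 to 0.92, and in A384T minus Tconv from -0.13 to 1.04; Sdhd in I363V minus Tconv ran from -0.044 to 0.60. Against WT hCD2 they were Atp5pb (-0.015 to 0.97) and Atp5g2 (-0.67 to 0.13) in A384T, Sdhc (-0.85 to 0.16) and Sdhd (-0.63 to 0.015) in I363V, and Cox8a (-0.69 to 0.015) in R397W. Against WT GFP of A384T mice they were Sdhd (-0.41 to 0.028), Uqcr10 (-0.32 to 0.11), Cox6a1 (-0.31 to 0.0018) and Atp5g2 (-0.36 to 0.018). In I363V minus R397W they were Ndufc2 (-0.82 to 0.035), Sdhd (-0.55 to 0.13), Uqcr10 (-0.46 to 0.048) and Uqcrq (-0.49 to 0.074). Between wild-type groups they were Sdhd (-0.36 to 0.039) and Sdhc (-0.36 to 0.71) for WT GFP of A384T mice, and Sdhc (-0.49 to 0.59), Uqcrb (-0.42 to 0.050), Uqcrh (-0.47 to 0.11) and Cox6a1 (-0.86 to 0.057) for WT hCD2, each minus WT GFP. In the interaction they were Sdhd (-0.40 to 0.038), Uqcrh (-0.081 to 0.50) and Uqcrq (-0.14 to 0.55).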
